A study of Mus musculus with 8 samples.

Results

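The subunits described here are those of the constitutive proteasome: the alpha and beta subunits of its core (gene symbols beginning Psma or Psmb) and the ATPase and non-ATPase subunits of its regulatory cap (Psmc or Psmd). Every symbol of that form was taken from the array's annotation, except the immunosubunits *Psmb8*, *Psmb9* and *Psmb10*, which served for comparison. Of 36 genes in fixed lists of core and cap subunits, 33 had a probe under their name and 31 could be tested. These were 12 of the core and 19 of the cap, among 9971 features tested in all. The count is by symbol, so the cap includes *Psmd5*, *Psmd9* and *Psmd10*, which encode chaperones that help assemble it. *Psma1* and *Psma6* had probes that were detected on none of the 8 arrays, and *Psma8*, *Psmb11* and *Psmd3* had no probe under their name. A feature was tested when its probe was detected (detection p under 0.05) on at least 4 of 8 arrays, and the brightest such probe stood for the gene.

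The cells were mSSC-YFP, a single mouse stromal line of the C57BL6/N strain that was immortalised from E18.5 embryonic spleen and used at passage 2 to 6. The stroma was kept for 40 to 48 h either with splenic B cells of control adult mice or with splenic B cells of age-matched, highly leukemic *Eμ-TCL1* mice, in which a B cell enhancer and promoter drive the human *TCL1* oncogene so that a chronic lymphocytic leukemia develops. Both groups received 20 B cells per stromal cell, and the stroma was then sorted from the lymphocytes and its total RNA hybridised to Illumina bead arrays, with 4 arrays for each group. Nothing in the labels says whether the replicates came from separate cultures or mice. No p-value here therefore speaks beyond the arrays at hand, whose spread may be technical. In such bulk RNA, fewer cells of a type cannot be told apart from less RNA per cell.

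The proteasome degrades proteins that carry ubiquitin chains. Its core is a barrel of stacked rings in which the outer alpha rings form the gate and the inner beta rings hold the proteolytic sites, and its cap recognises ubiquitin, removes it and unfolds the substrate with a ring of ATPases. Every nucleated cell makes the constitutive form, and interferon replaces its 3 catalytic beta subunits by immunosubunits that change which peptides are cut for antigen presentation.

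The arrays detected 13504 to 13938 probes each, with a median signal of 67.2 to 90.2. Of 11 fibroblast markers on the array, 10 or 11 were detected on every array, and their summed signal was 92700 to 99100 in control and 80500 to 105000 in leukemic cocultures. B cell markers were low but present: 5 or 6 of 14 were detected on each control array and 6, 7, 7 and 9 on the leukemic arrays, while *Ms4a1*, *Pax5* and *Spib* were detected on none. Their summed signal was 738 to 871 in controls, 1080 to 1370 in leukemic 1 to 3 and 6525 in leukemic 4. The summed signal of 10 pan-leukocyte markers, of which *Ptprc*, *Lcp1* and *Cd48* were detected on no array, was 4010 to 4300 in controls, 3600 to 4750 in leukemic 1 to 3 and 8080 in leukemic 4. Leukemic 4 also correlated least with the other arrays (r of 0.955 to 0.97 across probes, against up to 0.995 between other arrays), so group medians, pair changes and gene differences that moved by over 1.5 times or changed sign without it are also given without it.

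No constitutive subunit passed either test, and most had a slightly lower mean in stroma kept with leukemic cells. The rank product, which asks whether a feature stands high or low in the ranks of all 16 leukemic-control array pairs, called 41 features higher (0.411%) and 2 lower (0.0201%) at q under 0.05, and none of the 31 subunits was among them. The p and q of the rank product came from 100 permutations of features within arrays. They set a feature against the other features and not against its own spread between arrays. limma called no feature, the lowest Benjamini-Hochberg adjusted p being 0.639, which was also the lowest among the subunits. At an unadjusted p under 0.05, limma singled out 4 of 31 subunits (*Psmb7*, *Psmc6*, *Psmd11* and *Psmd12*), all lower in leukemic cocultures, against 756 of all features (7.58%), 367 lower (3.68%) and 389 higher (3.9%). The rank product at an unadjusted p under 0.05 singled out *Psmc6*, *Psmd2* and *Psmd5* as lower, 3 of 31 against 7.02% of all features, and no subunit as higher, against 7.05%.

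The mean of the leukemic arrays was below the control mean for 23 of 31 subunits (74.2%), against 49.4% of all features. The median difference, leukemic minus control on the log2 scale, was -0.13 over the subunits and 0.0028 over all features. The core had a median of -0.10, with 8 of 12 members lower and a range from -0.31 (*Psmb7*) to 0.097 (*Psma2*), and the cap had a median of -0.14, with 15 of 19 lower and a range from -0.53 (*Psmc6*) to 0.22 (*Psmd8*). Within the core, the alpha subunits had a median of -0.10 (4 of 5 lower) and the beta subunits -0.0099 (4 of 7 lower). Without leukemic 4 these medians were -0.039 (3 of 5 lower) and 0.041 (2 of 7 lower). Within the cap, the medians were -0.11 for the ATPases (5 of 6 lower) and -0.15 for the non-ATPase subunits (10 of 13 lower), and without leukemic 4 they were -0.054 (4 of 6 lower) and -0.12 (10 of 13 lower).

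**Figure D1:**
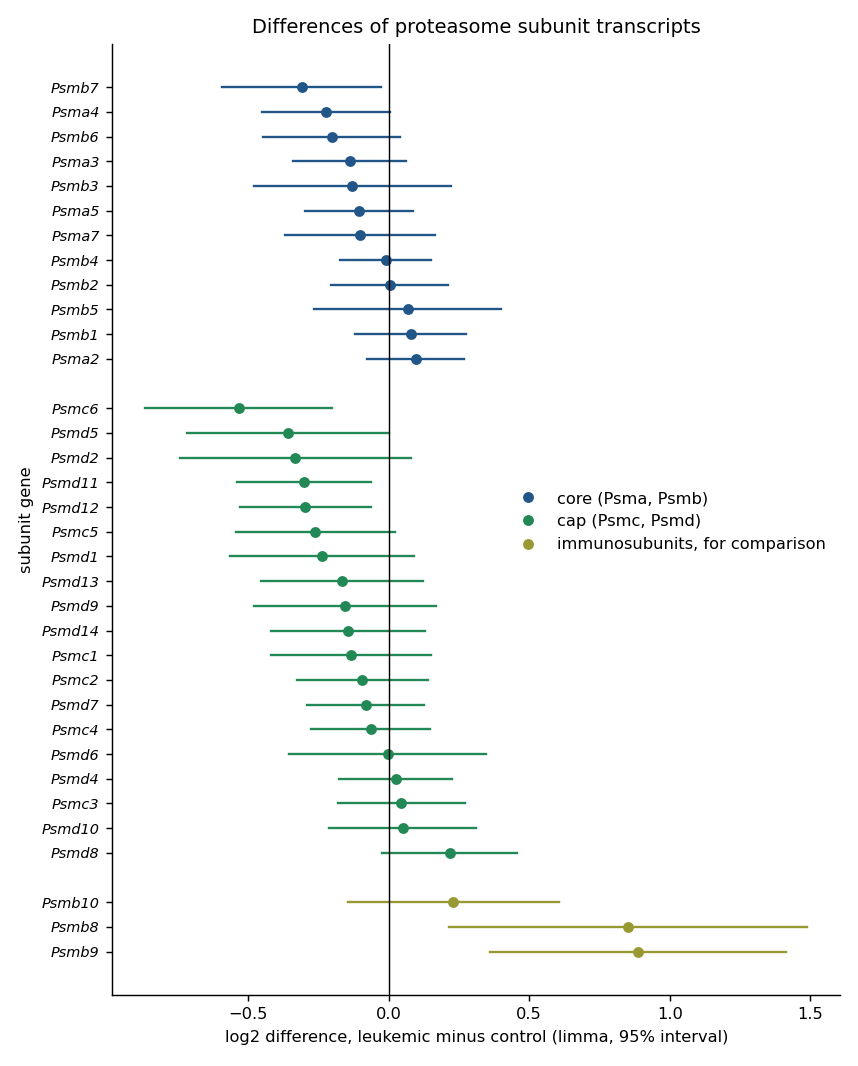
Difference in normalised signal, leukemic minus control on the log2 scale, for each of the 31 tested subunits with its 95% confidence interval from limma (n = 4 and 4 arrays). Most points of these subunits lie left of 0, from -0.53 for *Psmc6* to 0.22 for *Psmd8*, and 23 of 31 intervals lie within 0.5 on either side of 0. The 3 immunosubunits are drawn for comparison, from 0.23 for *Psmb10* to 0.89 for *Psmb9*.

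The confidence intervals reflect the spread between these arrays, which may be technical, and hold for the brightest probe of each gene. They therefore do not bound a change between the cocultures. For 23 of 31 subunits (74.2%), 11 of the core and 12 of the cap, the 95% confidence interval of the difference lay within 0.5 log2 units of 0, which held for 52.9% of all features. Most subunits had bright probes. The median normalised signal of the 31 was 12.4 on the log2 scale, against 8.96 over all features. Their median SD within groups was 0.16 against 0.21. The probes of *Psmc6*, *Psmd2*, *Psmd5*, *Psmd6* and *Psmd9*, all of the cap, lay below 8.96 on every array. Among them were the lowest differences of the 31, those of *Psmc6* (-0.53), *Psmd5* (-0.36) and *Psmd2* (-0.33). In the authors' normalised values these were -0.13, -0.19 and -0.11. The part of probe brightness in these differences was not tested.

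The lower means came mainly from certain arrays. Relative to each subunit's own mean over the 8 arrays, the median deviation of the 31 subunits was 0.017, 0.12, 0.021 and 0.042 in control 1 to 4, and -0.084, 0.074, 0.069 and -0.27 in leukemic 1 to 4. Leukemic 4 was therefore far below the others and leukemic 1 moderately below, whereas leukemic 2 and 3 lay above all controls except control 2. In leukemic 4, 26 of 31 subunits were below their own mean, in leukemic 1 it was 25, and in leukemic 2 and 3 it was 9 and 10. Leukemic 4 gave the lowest of all 8 values for 21 subunits (67.7%), 9 of the core and 12 of the cap, against 29.1% of all features, and the highest for *Psmd8* alone (3.23%), against 25.2%. Its deviation was similar in the core (-0.26) and the cap (-0.28), and over all features the array medians stayed between -0.023 and 0.017.

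**Figure D2:**
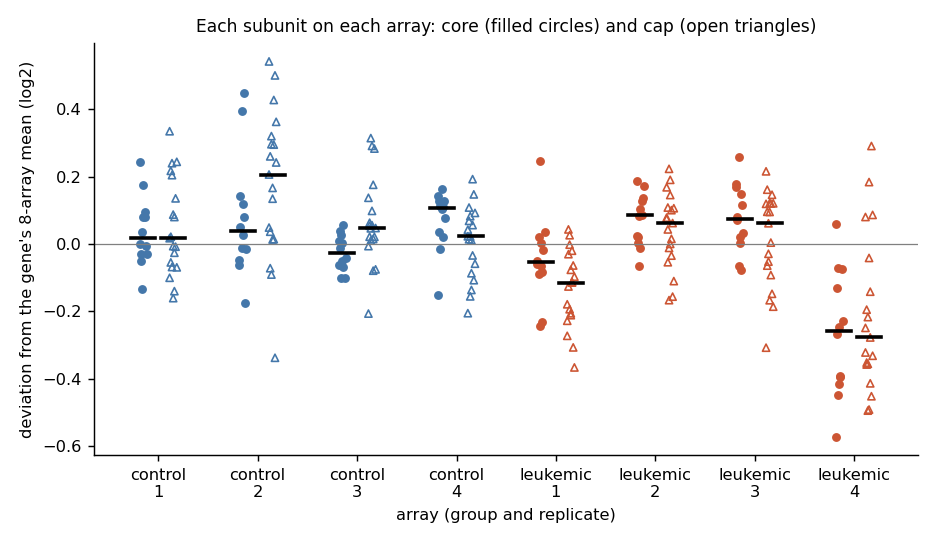
Deviation of each tested subunit from its own mean over the 8 arrays (log2 units) by array, core and cap apart, with the median of each set marked. Leukemic 4 lies lowest, with medians of -0.26 for the core and -0.28 for the cap, and the cap in control 2 lies highest, with a median of 0.21.

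Without leukemic 4, the median difference over the subunits was -0.047, with 19 of 31 lower (61.3%) against 48.5% of all features. The core then had a median of 0.022, with 5 of 12 lower, and the cap -0.064, with 14 of 19 lower. Leukemic 4 was the array with the largest summed signal of B cell and pan-leukocyte markers, and the part of these markers in the subunit values was not tested.

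Separation of the groups, in which every leukemic array lay below every control array, was found for 4 of 31 subunits (12.9%): *Psma4* of the core and *Psmc6*, *Psmd11* and *Psmd12* of the cap. Over all features, 2.31% were separated in this direction. No subunit was separated in the opposite direction, against 2.21% of features.

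*Psma4* encodes an alpha subunit of the outer core ring. Its normalised signal on the log2 scale was 13.14, 13.50, 13.13 and 13.09 in control 1 to 4 and 12.86, 13.04, 13.04 and 13.03 in leukemic 1 to 4. The lowest control (control 4) was above the highest leukemic arrays by less than the spread within the control group, in which control 2 stood out. The difference was -0.22 ± 0.10 (SE), with a 95% interval of -0.45 to 0.0057, and was -0.24 without leukemic 4 and -0.13 without control 2.

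*Psmc6* encodes one of the ATPases that unfold the substrate and had the lowest difference of the 31 subunits, although it did not pass the adjusted thresholds. It was measured by a dim probe, with a raw signal of 100.4 to 165.2 over the arrays. Its normalised signal was 6.68, 7.04, 6.83 and 6.69 in control 1 to 4 and 6.24, 6.39, 6.39 and 6.09 in leukemic 1 to 4, so that the groups were clearly apart. The difference was -0.53 ± 0.15 (SE; 95% interval -0.86 to -0.20), a ratio of 0.691, with an unadjusted limma p of 0.00477 and a rank product q of 0.36. It was -0.47 without leukemic 4, -0.38 without background correction and -0.13 in the authors' normalised values.

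*Psmd11* and *Psmd12*, which encode subunits of the lid of the cap, were picked out after their values had been seen. *Psmd11*, whose product touches both the core and the ATPases, gave 10.39, 10.43, 10.23 and 10.24 in control 1 to 4 and 10.05, 10.12, 10.11 and 9.82 in leukemic 1 to 4. Every leukemic array was below every control, and leukemic 4 was the lowest. The difference was -0.30 ± 0.11 (SE; unadjusted limma p of 0.0187), -0.23 without leukemic 4 and -0.12 on a second probe.

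*Psmd12* was separated by less. Its values were 12.34, 12.43, 12.14 and 12.22 in control 1 to 4 and 11.94, 12.12, 12.10 and 11.78 in leukemic 1 to 4, with a narrow gap between control 3 and leukemic 2. The difference was -0.30 ± 0.10 (SE; unadjusted limma p of 0.0171), -0.23 without leukemic 4 and -0.21 on a second probe.

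The promoters of these genes were examined because coordinated subunit expression is known to run through shared promoter elements, among them the antioxidant response element bound by NFE2L1. Promoter windows of RefSeq (build GRCm38.p6), cut to the 250 bases before the start site, were listed for 26 of the 31 subunits, as 27 windows since *Psmc2* had 2, and *Psmb1*, *Psmb2*, *Psmb7*, *Psmc3* and *Psmd7* were not listed. The windows of the 4 separated subunits, and that of *Psmd8*, the subunit with the highest difference, are given 5′ to 3′ on the gene's strand, with matches on either strand to TGANNNNGC (the core of the antioxidant response element), CCAAT (the CCAAT box) or CCGGAA (the core of ETS factor sites) in capitals.
Psma4: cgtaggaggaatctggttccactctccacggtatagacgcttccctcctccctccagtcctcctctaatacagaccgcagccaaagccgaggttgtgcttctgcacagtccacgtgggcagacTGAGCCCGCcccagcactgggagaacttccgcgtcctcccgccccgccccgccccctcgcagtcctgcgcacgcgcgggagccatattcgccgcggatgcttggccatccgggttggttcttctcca
Psmc6: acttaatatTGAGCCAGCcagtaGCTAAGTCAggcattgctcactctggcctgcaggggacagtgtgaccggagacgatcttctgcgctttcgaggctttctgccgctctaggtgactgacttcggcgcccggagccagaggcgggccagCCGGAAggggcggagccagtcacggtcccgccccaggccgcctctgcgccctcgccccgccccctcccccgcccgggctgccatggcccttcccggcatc
Psmd11: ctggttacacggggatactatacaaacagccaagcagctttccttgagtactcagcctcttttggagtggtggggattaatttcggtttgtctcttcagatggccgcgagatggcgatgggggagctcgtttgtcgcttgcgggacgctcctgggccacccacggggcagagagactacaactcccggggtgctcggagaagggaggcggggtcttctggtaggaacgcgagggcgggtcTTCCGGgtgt
Psmd12: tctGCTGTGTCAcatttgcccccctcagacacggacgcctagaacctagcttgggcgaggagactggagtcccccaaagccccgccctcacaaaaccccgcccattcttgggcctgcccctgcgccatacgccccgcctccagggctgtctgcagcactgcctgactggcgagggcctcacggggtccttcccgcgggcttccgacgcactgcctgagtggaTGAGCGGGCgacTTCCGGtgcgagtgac
Psmd8: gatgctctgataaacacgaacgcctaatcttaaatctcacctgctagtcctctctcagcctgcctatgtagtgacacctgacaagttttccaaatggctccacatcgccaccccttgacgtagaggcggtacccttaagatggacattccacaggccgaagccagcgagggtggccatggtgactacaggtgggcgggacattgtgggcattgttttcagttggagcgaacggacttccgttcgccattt

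The windows were chr9:54950609-54950858 (plus strand) for *Psma4*, chr14:45329574-45329823 (plus) for *Psmc6*, chr11:80428365-80428614 (plus) for *Psmd11*, chr11:107479278-107479527 (plus) for *Psmd12* and chr7:29180674-29180923 (minus) for *Psmd8*. Counted back from the start site, TGANNNNGC began 127 bases before it in *Psma4*, 241 and 227 bases in *Psmc6*, and 247 and 28 bases in *Psmd12*. CCGGAA began 100 bases before the start of *Psmc6*, 10 before that of *Psmd11* and 16 before that of *Psmd12*, and none of the motifs was found in *Psmd8*. No 2 matches overlapped in these windows.

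Over the subunits listed, TGANNNNGC was in 10 of 27 windows (37%) and in 35.2% of 32851 promoter windows of the same length. CCAAT was in 9 of 27 (33.3%) against 33.8%. CCGGAA was in 13 of 27 (48.1%) against 12%. The windows compared were all those listed, not matched to the subunits in expression or base composition. The start site used lay 5340 bases inside the gene boundary for *Psma3*, 1472 for a *Psmc2* window and 530 for *Psmd2*. A match describes the letters in the window and not binding.

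Among the alpha subunits, which shape the outer ring and its gate, *Psma2* had the highest difference. Its values were 14.16, 14.11, 14.17 and 14.01 in control 1 to 4 and 14.10, 14.19, 14.33 and 14.22 in leukemic 1 to 4, so the groups overlapped. The difference was 0.097 ± 0.078 (SE). The other alpha subunits tested, *Psma3*, *Psma5* and *Psma7*, had differences of -0.14, -0.10 and -0.10, which were -0.072, -0.039 and 0.013 without leukemic 4.

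The catalytic beta subunits differed in the sign of their differences, none of which passed the adjusted thresholds. *Psmb5*, the chymotrypsin-like subunit, gave 11.46, 11.58, 11.50 and 11.71 in control 1 to 4 and 11.84, 11.68, 11.85 and 11.15 in leukemic 1 to 4. Leukemic 1 and 3 were above all controls and leukemic 4 was below all of them. The difference was 0.068 ± 0.15 (SE; 95% interval -0.26 to 0.40), and 0.23 without leukemic 4.

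*Psmb6*, the caspase-like subunit, gave 13.44, 13.38, 13.21 and 13.42 in control 1 to 4 and 13.27, 13.25, 13.28 and 12.84 in leukemic 1 to 4. Control 3 lay below leukemic 1 to 3, and leukemic 4 stood apart at the bottom. The difference was -0.20 ± 0.11 (SE; 95% interval -0.45 to 0.041), and -0.097 without leukemic 4.

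*Psmb7*, the trypsin-like subunit, had the lowest difference in the core. Its values were 12.59, 12.95, 12.56 and 12.52 in control 1 to 4 and 12.27, 12.59, 12.42 and 12.10 in leukemic 1 to 4, and leukemic 2 overlapped with the controls. The difference was -0.31 ± 0.13 (SE; 95% interval -0.59 to -0.027; unadjusted limma p of 0.0349) and -0.23 without leukemic 4. The other probes of *Psmb7* differed by -0.048 and -0.0059, so the low value rested on the brightest probe.

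The remaining beta subunits are structural. *Psmb1* gave 13.75, 13.58, 13.65 and 13.88 in control 1 to 4 and 13.74, 13.89, 13.87 and 13.68 in leukemic 1 to 4, with overlapping groups and a difference of 0.078 ± 0.090 (SE). *Psmb2*, *Psmb3* and *Psmb4* differed by 0.0041, -0.13 and -0.0099, and by 0.082, 0.041 and 0.032 without leukemic 4.

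The ATPases of the cap other than *Psmc6* differed by -0.26 (*Psmc5*) to 0.046 (*Psmc3*). *Psmc3*, a further member of the unfolding ring and the ATPase with the highest difference, gave 12.03, 12.01, 12.15 and 12.12 in control 1 to 4 and 12.13, 12.32, 12.16 and 11.88 in leukemic 1 to 4. Leukemic 2 and 3 lay above all controls, leukemic 1 among them and leukemic 4 below them, which gave a difference of 0.046 ± 0.10 (SE), and 0.13 without leukemic 4. *Psmc1*, *Psmc2* and *Psmc4* differed by -0.13, -0.093 and -0.064. Without leukemic 4, *Psmc1* was -0.047, *Psmc2* 0.011 and *Psmc5* -0.17.

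*Psmd1* and *Psmd2* encode the large scaffold subunits of the cap. *Psmd2* gave 7.42, 7.63, 7.08 and 6.88 in control 1 to 4 and 6.91, 7.16, 6.78 and 6.84 in leukemic 1 to 4. The controls ranged widely and the groups overlapped, control 3 and 4 lying among the leukemic arrays. The difference was -0.33 ± 0.19 (SE), -0.32 on a second probe, -0.21 without control 2 and -0.11 in the authors' normalised values. *Psmd1* differed by -0.24 (-0.15 without leukemic 1), and the ubiquitin receptor *Psmd4* by 0.026 (0.095 without leukemic 4).

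*Psmd5*, *Psmd9* and *Psmd10* encode chaperones that help assemble the cap. *Psmd5* gave 8.46, 8.54, 8.53 and 8.06 in control 1 to 4 and 8.22, 8.05, 8.17 and 7.72 in leukemic 1 to 4, with control 4 within the range of the leukemic arrays. The difference was -0.36 ± 0.16 (SE), -0.25 without leukemic 4 and -0.19 in the authors' normalised values. *Psmd10*, also known as gankyrin, gave 11.35, 11.38, 11.13 and 11.38 in control 1 to 4 and 11.06, 11.41, 11.55 and 11.42 in leukemic 1 to 4, a difference of 0.050 ± 0.12 (SE), and 0.032 without leukemic 4. *Psmd9* differed by -0.15, by -0.059 without control 2 and by -0.067 in the authors' normalised values.

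The lid of the cap holds *Psmd8*, the subunit with the highest difference of the 31. *Psmd8* gave 12.45, 12.12, 12.48 and 12.35 in control 1 to 4 and 12.39, 12.52, 12.60 and 12.75 in leukemic 1 to 4. Leukemic 1 lay among the controls and the other leukemic arrays above them, leukemic 4 being the highest. The difference was 0.22 ± 0.11 (SE; 95% interval -0.022 to 0.46), a ratio of 1.16, and was 0.16 without leukemic 4 and 0.14 without control 2. Of the other lid subunits, *Psmd14*, the deubiquitinase of the cap, differed by -0.14 and its partner *Psmd7* by -0.082. *Psmd6* differed by -0.0028 and *Psmd13* by -0.16. Without leukemic 4, *Psmd7* was -0.0028, *Psmd6* -0.064 and *Psmd13* -0.028. Without control 2, *Psmd14* was -0.025.

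**Figure D3:**
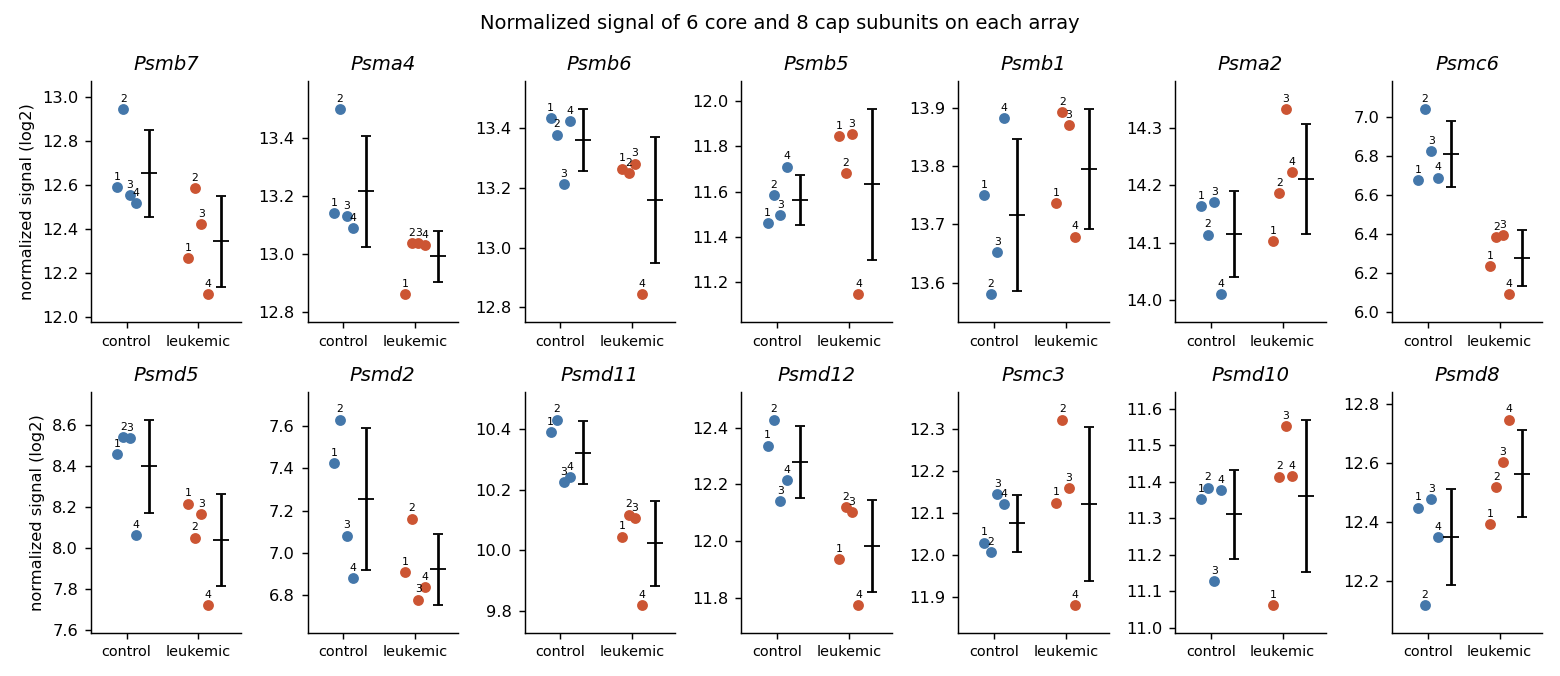
Normalised signal (log2 scale) on each array for 6 core and 8 cap subunits, with the digit of each point giving the replicate number and the bar beside the points the mean ± SD of 4 arrays. *Psmc6* is fully separated between the groups, whereas in *Psmb5* and *Psmc3* leukemic 4 lies below all other arrays.

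Of the 31 subunits, 11 had more than 1 detected probe, and in 9 of them all probes had the same sign of difference. The exceptions were *Psmb2* (0.0041 on the brightest probe and -0.059 on the other) and *Psmd9* (-0.15 and 0.0043). Probes of the same sign could still differ in size. *Psmd6* was -0.0028 on the brightest probe and -0.26 on the other, and *Psmd7* was -0.082 and -0.29. In others, such as *Psmb7* and *Psmd11*, the brightest probe had the larger difference.

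Of the 3 immunosubunits that replace the catalytic subunits, *Psmb8* and *Psmb9* were called higher by the rank product in leukemic cocultures. The same test called 4 of 5 tested B cell markers and 2 of 5 tested pan-leukocyte markers higher. Leukemic 4, with the largest sums of these markers, was also highest for *Psmb8* and *Psmb9*. The part of lymphocyte RNA in the immunosubunit values was not tested. *Psmb8*, the counterpart of *Psmb5*, gave 6.41, 6.16, 6.22 and 7.21 in control 1 to 4 and 7.54, 7.27, 6.70 and 7.89 in leukemic 1 to 4. The groups overlapped through control 4 and leukemic 3, and the difference of 0.85 ± 0.29 (SE) passed the rank product (q = 0.0323) but not limma (adjusted p = 0.639). *Psmb9*, the counterpart of *Psmb6*, gave 6.66, 6.76, 6.93 and 7.39 in control 1 to 4 and 7.68, 7.80, 7.37 and 8.43 in leukemic 1 to 4.

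Control 4 of *Psmb9* lay just above leukemic 3, and the difference was 0.89 ± 0.24 (SE; rank product q = 0.03). *Psmb10*, the counterpart of *Psmb7*, gave 11.99, 11.68, 11.47 and 12.23 in control 1 to 4 and 12.39, 11.96, 11.83 and 12.12 in leukemic 1 to 4, a difference of 0.23 ± 0.17 (SE) with overlapping groups that did not pass, and 0.11 without control 3 and 0.13 without leukemic 1. Without leukemic 4 the differences of *Psmb8* and *Psmb9* were 0.67 and 0.68, and neither was called. Both calls were also lost without control 1, control 2, leukemic 1 or leukemic 2, and that of *Psmb8* without control 3 and without background correction (q of 0.0683). In the authors' normalised values the differences were 0.25 for *Psmb8* and 0.33 for *Psmb9*, with rank product q of 0.521 and 0.331.

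To ask whether an immunosubunit changed relative to the constitutive subunit it replaces, the log2 difference of the pair was taken within each array and compared between groups, for 3 pairs. For *Psmb9* and *Psmb6* it was -6.78, -6.62, -6.29 and -6.03 in control 1 to 4 and -5.58, -5.45, -5.91 and -4.41 in leukemic 1 to 4, so every leukemic array was above every control. The change was 1.09, a ratio of 2.13. Most of it came from *Psmb9*, whose own difference was 0.89, against -0.20 for *Psmb6*. The exact two-sided permutation p was 0.0286, which is the smallest that 4 arrays against 4 allow, and 0.0858 after adjustment over the 3 pairs. Without leukemic 4 the change was 0.78 (exact permutation p of 0.0571), and in the authors' normalised values 0.55 (exact permutation p of 0.0286). Pairing the arrays by replicate number gave an exact paired p of 0.125, the smallest 4 pairs allow.

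The other pairs overlapped between the groups. *Psmb8* against *Psmb5* was -5.05, -5.43, -5.28 and -4.50 in control 1 to 4 and -4.31, -4.41, -5.15 and -3.25 in leukemic 1 to 4, a change of 0.78 (exact permutation p of 0.114, adjusted 0.143). It was 0.44 without leukemic 4 and 0.19 in the authors' normalised values. *Psmb10* against *Psmb7* was -0.60, -1.27, -1.08 and -0.28 in control 1 to 4 and 0.12, -0.62, -0.59 and 0.015 in leukemic 1 to 4, a change of 0.54 (exact permutation p of 0.143, adjusted 0.143), and 0.45 without leukemic 4. With the mean of all detected probes of each gene, this change was 0.4 (exact permutation p of 0.2). Each value compares probes of different genes within an array, so only its change between groups can be read.

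**Figure D4:**
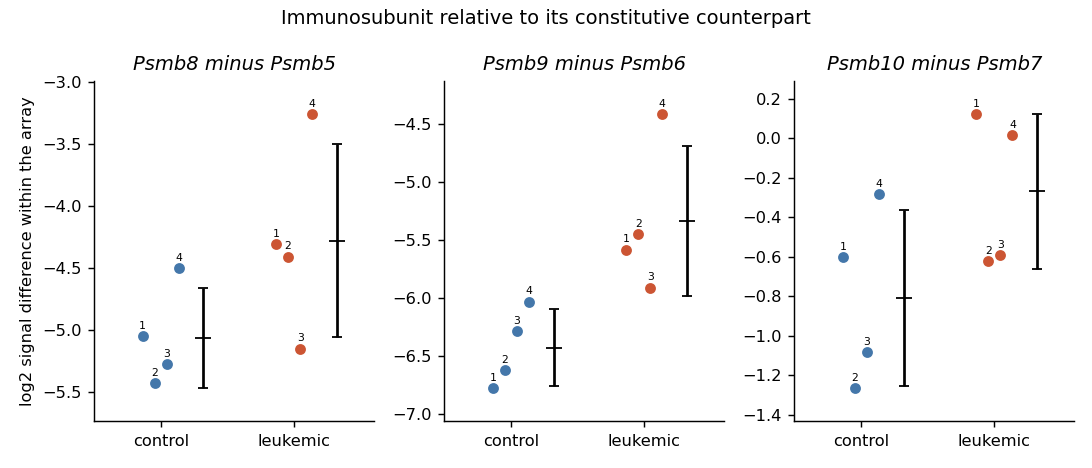
Log2 signal of each immunosubunit minus that of the constitutive catalytic subunit it replaces, on each array, for the 3 pairs in control and leukemic cocultures (n = 4 arrays each). The groups are apart for *Psmb9* and *Psmb6*, with a change of 1.09, and overlap for the other pairs.

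Of the other genes that serve the proteasome, 44 were listed, 32 were on the array and 28 could be tested. With the immunosubunits included, 11 were higher and 17 lower, *Psmb8* and *Psmb9* were the ones that rose by the rank product, none fell, and the median difference was -0.035. The activator *Psme1*, a subunit of the interferon-inducible PA28 cap, gave 12.36, 12.45, 12.60 and 12.91 in control 1 to 4 and 12.88, 12.90, 12.75 and 12.92 in leukemic 1 to 4. Control 4 lay among the leukemic arrays, and the difference was 0.29 ± 0.12 (SE), the highest of 4 activators and inhibitors tested, the lowest being -0.20 for *Psme3* (-0.12 without leukemic 4).

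None of the other lists had a member past the rank product. Of 4 assembly chaperones, 2 were higher and 2 lower, from 0.061 for *Pomp*, which matures the core, to -0.073 for *Psmg2*, and these were 0.13 and 0.12 without leukemic 4. Of 8 ubiquitin receptors, deubiquitinases and ligases bound to the proteasome, 6 were lower, from 0.091 for the ligase *Ube3c* to -0.30 ± 0.16 (SE) for the deubiquitinase *Uchl5*. In the pathway of NFE2L1, the transcription factor that raises subunit genes when the proteasome is impaired, 3 of 4 were lower, from 0.082 for *Syvn1* to -0.13 for *Nfe2l1* itself. Of 5 genes around the unfoldase VCP, 4 were lower, from 0.031 for *Faf2* to -0.10 for *Vcp*, and these were -0.037 and -0.061 without leukemic 4. No gene for ubiquitin or its E1 enzymes could be tested.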

How the data were processed

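Total RNA of sorted stroma was measured on 8 Illumina bead arrays, 4 for each coculture, without pooling. The authors deposited for each probe an intensity without normalisation and a detection p-value, and a second table of log2 values that they had normalised with lumi, in which every array had a median of 7.72. The intensity and the deposited detection p-value were used here, and the deposited log2 values only as an alternative.

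Intensities were corrected and quantile normalised with neqc (limma 3.58.1 in R 4.3.3, offset 16). Probes detected (p under 0.05) on at least 4 of 8 arrays were kept, 13732 of 25697, and the brightest probe of each symbol was used, giving 9971 features, 9174 of them with a symbol. Of all probes, 23978 had 1 symbol, 0 had several and 1719 had none. Differences are leukemic minus control. The main test was the 2-class unpaired rank product named by the study's methods, written anew and tested on simulated data. Its q per direction came from 100 permutations of features within arrays (threshold 0.05). limma with a trend and Benjamini-Hochberg adjustment gave differences, SE and intervals, and the 3 subunit pairs were compared by exact permutation tests. For arrays, their number limits the precision.

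Per-array values were given for the 3 highest and 3 lowest members of core and cap and for the catalytic subunits, and for each other list the highest and lowest gene was named. The members and lists were chosen with earlier results of these data known. Alternatives covered background correction, scaling, the authors' values, the detection filter, the probe rule, the variance prior, a replicate block and leaving out each array. Promoter windows came from RefSeq.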

Additional observations from a re-analysis of the deposited data

Results flagged for a closer look

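Of 74 groups of 4 arrays examined, 6 held a value whose gap to its nearest neighbour was a larger share of the group's range than Dixon's 95% limit for 4 samples allows, which chance alone passes in about 1 of 20 groups. *Psma4* had both a high control 2 (13.50, nearest 13.14) and a low leukemic 1 (12.86, nearest 13.03). *Psmb6* was low in leukemic 4 (12.84, nearest 13.25). In the cap, *Psmd5* was low in control 4 (8.06, nearest 8.46), *Psmd10* was low in control 3 (11.13, nearest 11.35) and *Psmd14* was high in control 2 (10.95, nearest 10.50). All values are normalised signals on the log2 scale.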

How the results depend on the processing

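No constitutive subunit was called by the rank product or limma under any alternative run, and *Psmc6* had the lowest difference in each except with the authors' normalised values, where *Psmb7* did (-0.32). The count of features higher by the rank product, 41, was 25 without background correction, 17 with the authors' values and 6 to 42 when 1 array was left out, with 6 without leukemic 4. The count lower, 2, was 0 without background correction, with detection on all 8 arrays, and in another draw of 100 permutations, which was chosen after seeing the data. It was 5 with the authors' values, 8 without a filter on detection, 18 with the replicate block and 0 to 14 when 1 array was left out. The cause was not tested.

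Arrays of the same replicate number deviated together with correlations of 0.25, 0.30, 0.19 and 0.031. Between arrays of different numbers the correlations ran from -0.28 to 0.19. The labels do not say whether a number marks a pair, and these values do not settle it. The arrays were treated as unpaired in the main tests. With the replicate block, *Psmb9* against *Psmb6* kept its change of 1.09 with an exact paired p of 0.125, the smallest 4 pairs allow, and it was 0.78 to 1.28 when 1 array was left out. With the authors' values it was 0.55 (exact permutation p of 0.0286), and *Psmb8* against *Psmb5* was 0.19 (exact permutation p of 0.657). Leaving out 1 array moved the core median between -0.16 and 0.022 and the cap median between -0.18 and -0.064.

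Among single genes, 471 values kept their direction and call, 14 lost the call, all of *Psmb8* or *Psmb9*, and 25 changed sign, all of subunits with a main difference between -0.13 and 0.068. With median scaling, which moved the median of all features to 0.054 and left 21 of 31 subunits lower (core median -0.060, cap median -0.087), *Psmc4* was 0.0011 and *Psmd6* 0.040. With the mean of all detected probes, *Psmb2* was -0.027. When 1 array was left out, the ranges were -0.17 to 0.013 for *Psma7*, -0.053 to 0.082 for *Psmb2*, -0.21 to 0.041 for *Psmb3*, -0.035 to 0.032 for *Psmb4* and -0.0059 to 0.23 for *Psmb5*. For the cap they were -0.14 to 0.011 for *Psmc2*, -0.020 to 0.13 for *Psmc3*, -0.024 to 0.095 for *Psmd4*, -0.067 to 0.094 for *Psmd6* and -0.014 to 0.15 for *Psmd10*.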
